A study of Arabidopsis thaliana with 18 samples.

Results

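The BGLU genes of Arabidopsis thaliana encode the family 1 beta-glucosidases, enzymes that cut the sugar from glucosides. Plants store many defence, lignin and signalling compounds as inactive glucosides, and these enzymes release the active part when the tissue is wounded, infected or building cell walls. In roots the family is best known for PYK10 (BGLU23), which fills the ER bodies, spindle-shaped compartments derived from the endoplasmic reticulum, and for enzymes that act on lignin precursors and coumarins. The 10 genes described here are those with the highest mean signal in whole roots among the genes that the array annotation names BGLU followed by a number. They were chosen by that mean over all 18 arrays, so their levels are given as a description and only the comparisons between groups were tested.

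Affymetrix ATH1 arrays, 3 in each of 6 groups, carried RNA from roots of wild type Col-0 and wild type WS, ecotypes whose roots skew differently along a surface. All seedlings grew in constant light on Phytagel plates and were harvested into RNAlater at an age of 8 days, with 5 roots per array. The plate stood vertically (Agp 90°, where Agp is the angle of the growth plate) throughout, or was moved after 3 vertical days to Agp 45° or Agp 135° for the other 5 days. The study asked which transcripts differ with the angle within an ecotype and which differ between the ecotypes at an angle. Neither the labels nor the methods used here say whether the 3 arrays of a group came from separate cultures, so the p-values measure the spread between arrays. As whole roots were pooled, fewer cells of a type and less RNA per cell cannot be told apart.

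Of 47 genes that the RefSeq annotation of TAIR10.1 names BGLU or lists as BGLU, 20 had a probe set of their own under a BGLU name, and the 10 genes described here are the upper 10 of these. The last gene inside the limit was BGLU47, with a mean signal of 52.7, and the first outside it was BGLU41, with 40.4. Of the remaining 27 genes, 2 had a probe set under another name (PYK10, and ATA27, which is BGLU20), 2 (BGLU21 and BGLU22) shared 1 probe set, and 23 had no named probe set and were not analysed here. The mean signals of PYK10 (16153) and of the shared probe set (6231) lay above those of all 10 genes. Mean signals of the 10 genes over the 18 arrays were 1914 for BGLU15, 848 for BGLU16, 815 for BGLU25, 792 for BGLU42, 659 for BGLU46, 562 for BGLU44, 216 for BGLU45, 69.7 for BGLU40, 58.2 for BGLU24 and 52.7 for BGLU47. These values set the rule for choosing the genes. BGLU24 passed the limit only through WS (means 18.9 in Col-0 and 97.5 in WS) and BGLU47 only through Col-0 (74.8 and 30.6), so an ecotype difference of these 2 genes follows from the choice, and their ecotype values are given below as a description. The other 8 genes lay above the limit in both ecotypes. They do not rank transcript amounts, because each probe set has its own brightness.

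Correlations between arrays of 1 group, over all probe sets, were 0.986 to 0.992. Actin signal at the 3' end over that at the 5' end, a sign of RNA quality, was 6.06 in Col-0 Agp 90° replicate 2 and 6.05 in WS Agp 90° replicate 3, against 3.85 to 4.76 in the other 16 arrays. Root hair cell markers were measured at summed signals of 729 to 1110.2 over the WS arrays and 925 to 1749 over the Col-0 arrays. EXPA7, EXPA18 and XTH26, the 3 of 10 listed root hair markers with a named probe set, were all higher in Col-0 over the 3 angles. At limma's adjusted p under 0.05, 29% of all probe sets differed in that comparison. The part of these markers in the ecotype differences below was not tested. Of 17 shoot photosynthesis markers only RCA (rubisco activase) had a named probe set, at 649 to 1454, and none of the 8 endodermis and 10 vascular markers had one, so the tissue label could be checked against few genes.

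**Figure D1:**
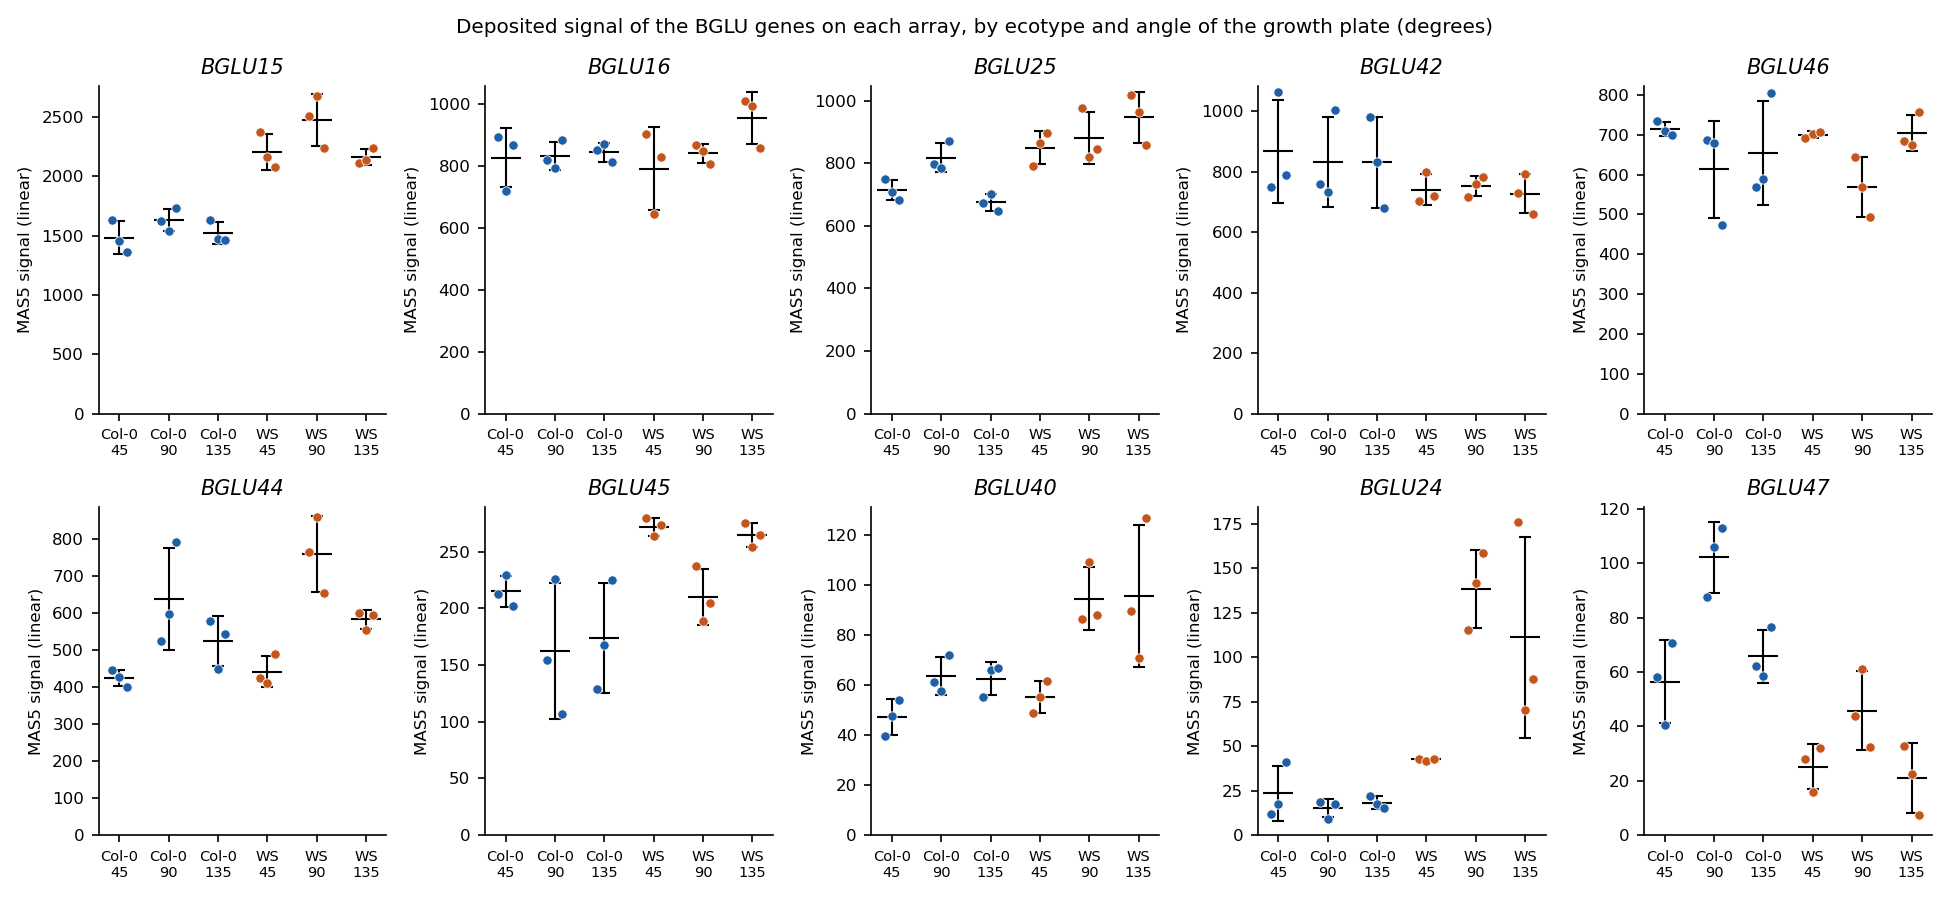
Deposited MAS5 signal (linear scale, vertical axes from 0) of each of the 10 BGLU genes on each array, with Col-0 in blue and WS in orange at plate angles of 45, 90 and 135 degrees. Points are arrays, the horizontal bar is the group mean and the error bar is 1 SD (n = 3). BGLU24 lay between 9.17 and 41.2 on all Col-0 arrays and between 41.9 and 176 on all WS arrays, and BGLU44 was lowest at Agp 45° in both ecotypes.

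At Agp 45° against Agp 90° in WS 2 of the 10 genes fell, BGLU24 and BGLU44, and none rose. A gene was called changed where limma's adjusted p, over all 22746 probe sets, was under 0.05. By that rule 0.985% of all probe sets were called in this comparison and 0.827% were called lower. Among the 8 genes above the limit in both ecotypes 1 was called, BGLU44. BGLU24 passed the limit through its WS signals, highest at Agp 90°, so the choice favours its fall and that call is a description. The deposited signals at the 2 angles did not overlap for 6 of the 10 genes, and for 16.9% of all probe sets.

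BGLU24 belongs to the subgroup of the family that also holds PYK10 and the other ER body type enzymes. In WS its signals were 115, 142 and 159 at Agp 90° and 43.0, 41.9 and 42.6 at Agp 45°. At Agp 135° they were 176, 70.3 and 87.6. All 3 arrays at Agp 45° lay below all others of WS, and those at Agp 135° spread past the range of Agp 90° on both sides. The WS means were 139 at Agp 90°, 111 at Agp 135° and 42.5 at Agp 45°. The higher of these brought the gene over the limit, so its tilt values in WS are a description. The change from Agp 90° to Agp 45° was -1.24 ± 0.22 on the log2(signal + 32) scale (SE, n = 3 arrays per group, limma's adjusted p = 0.012), a scale that understates changes of signals near 32. With a pseudocount of 1 in place of 32 the change was -1.75, and with 100 it was -0.77. The call did not hold with a pseudocount of 1, without WS Agp 90° replicate 3 or without WS Agp 45° replicate 1, and without both arrays of high actin ratio (adjusted p = 0.078). Agp 135° against Agp 90° gave -0.36 ± 0.22 (adjusted p = 0.60) and Agp 45° against Agp 135° gave -0.88 ± 0.22 (adjusted p = 0.14).

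In Col-0 the BGLU24 signals were 18.3, 9.17 and 17.6 at Agp 90°, 11.8, 17.2 and 41.2 at Agp 45°, and 22.2, 17.4 and 15 at Agp 135°. The 3 angles overlapped, and the array of 41.2 stood apart from the other 8. Agp 45° against Agp 90° gave 0.23 ± 0.22 (adjusted p = 0.88). The interaction of ecotype with this change (the change in WS minus that in Col-0) was -1.47 ± 0.31, with an unadjusted limma p of 0.00026 and an adjusted p of 0.48. The change is therefore not shown to differ between the ecotypes, and the choice of the gene favours such a difference. No probe set of the array was called for the interaction at Agp 45° or at Agp 135° (0% and 0%), and at an unadjusted p under 0.05 limma gave 1 of the 10 genes for each, against 7.35% and 6.87% of all probe sets.

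BGLU44, which is known to act on beta-mannosides, fell at Agp 45° in WS and had its lowest signals at that angle in Col-0 as well. Its WS signals were 765, 859.7 and 655 at Agp 90°, 425, 411 and 489.7 at Agp 45°, and 601, 553 and 594 at Agp 135°. The 3 angles did not overlap in WS, with Agp 45° lowest and Agp 90° highest. Between 2 angles in WS, 15.4% to 16.9% of all probe sets did not overlap. Agp 45° against Agp 90° was -0.71 ± 0.13 (limma's adjusted p = 0.015), and Agp 135° against Agp 90° was -0.36 ± 0.13 (adjusted p = 0.34). These comparisons share the Agp 90° arrays. Agp 45° against Agp 135° gave -0.35 ± 0.13 (adjusted p = 0.36), so of the neighbouring angles in this order neither pair passed the test. The call at Agp 45° did not hold when only the 2 groups entered the fit (adjusted p = 0.099), or without WS Agp 90° replicate 2, WS Agp 45° replicate 1 or WS Agp 45° replicate 2.

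In Col-0 the BGLU44 signals were 526, 597 and 792 at Agp 90°, 445, 428 and 401 at Agp 45°, and 579, 450.2 and 543 at Agp 135°. All arrays at Agp 45° again lay below all others of the ecotype. In Col-0 12.7% of all probe sets did not overlap between Agp 45° and Agp 90°, and 9.67% between Agp 45° and Agp 135°. Agp 45° against Agp 90° gave -0.53 ± 0.13, which did not pass the test (adjusted p = 0.29). The interaction was -0.17, with a 95% interval from -0.57 to 0.22 (adjusted p = 0.86). Averaged over both ecotypes in the same fit, a contrast added after the values had been seen, BGLU44 fell by 0.62 on the log2 scale (SE 0.09, limma's adjusted p = 0.0028) and was the 1 gene called of 10. In that contrast 0.91% of all probe sets were called and 0.747% were called lower. The Agp 45° arrays of each ecotype all lay below the Agp 90° arrays of both. Over both ecotypes 0.615% of all probe sets did not overlap between these angles.

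The remaining tilt comparisons called none of the 10 genes by limma. In Col-0 this was so for Agp 45° against Agp 90° (0.022% of all probe sets called), Agp 135° against Agp 90° (0%) and Agp 45° against Agp 135° (0%). At an unadjusted p under 0.05 these gave 3, 2 and 1 of the 10 genes, and 7.35%, 6.73% and 4.1% of all probe sets. In WS it was so for Agp 135° against Agp 90° (0.0528%) and Agp 45° against Agp 135° (0.356%), with 3 and 4 genes at the unadjusted threshold, and 10.6% and 9.86% of all probe sets. Averaged over both ecotypes, Agp 135° against Agp 90° (0.0044%) and Agp 45° against Agp 135° (0.286%) each gave 0 calls, with 3 genes each at the unadjusted threshold, and 10.6% and 8.12% of all probe sets. Among the 10 other BGLU genes with a probe set of their own, no tilt comparison called any, with at most 3 at an unadjusted p under 0.05. BGLU30 (DIN2) is not among these and was not tested here.

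BGLU40 and BGLU47 gave values in 1 direction that did not pass. BGLU40 signals in WS were 86.4, 109 and 87.7 at Agp 90° and 48.9, 54.9 and 61.6 at Agp 45°, which did not overlap, and the change was -0.54 ± 0.13 (limma's adjusted p = 0.063). In Col-0 they were 61.0, 57.5 and 71.9 at Agp 90° and 39.6, 47.6 and 54.1 at Agp 45°, also without overlap. The change in Col-0 was -0.21 ± 0.13 (adjusted p = 0.77). Signals at these 2 angles did not overlap for 16.9% of all probe sets in WS and 12.7% in Col-0. At Agp 135° BGLU40 gave 55, 65.9 and 66.5 in Col-0 and 89.5, 70.6 and 126 in WS, overlapping the range of Agp 90° in both. BGLU47, which groups by sequence with the monolignol glucosidases BGLU45 and BGLU46, had lower means at both tilted angles than at Agp 90° in both ecotypes. Its 4 log2 changes against Agp 90° lay between -0.61 and -0.43, each with an SE of 0.18, and none passed (adjusted p from 0.23 to 0.73).

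**Figure D2:**
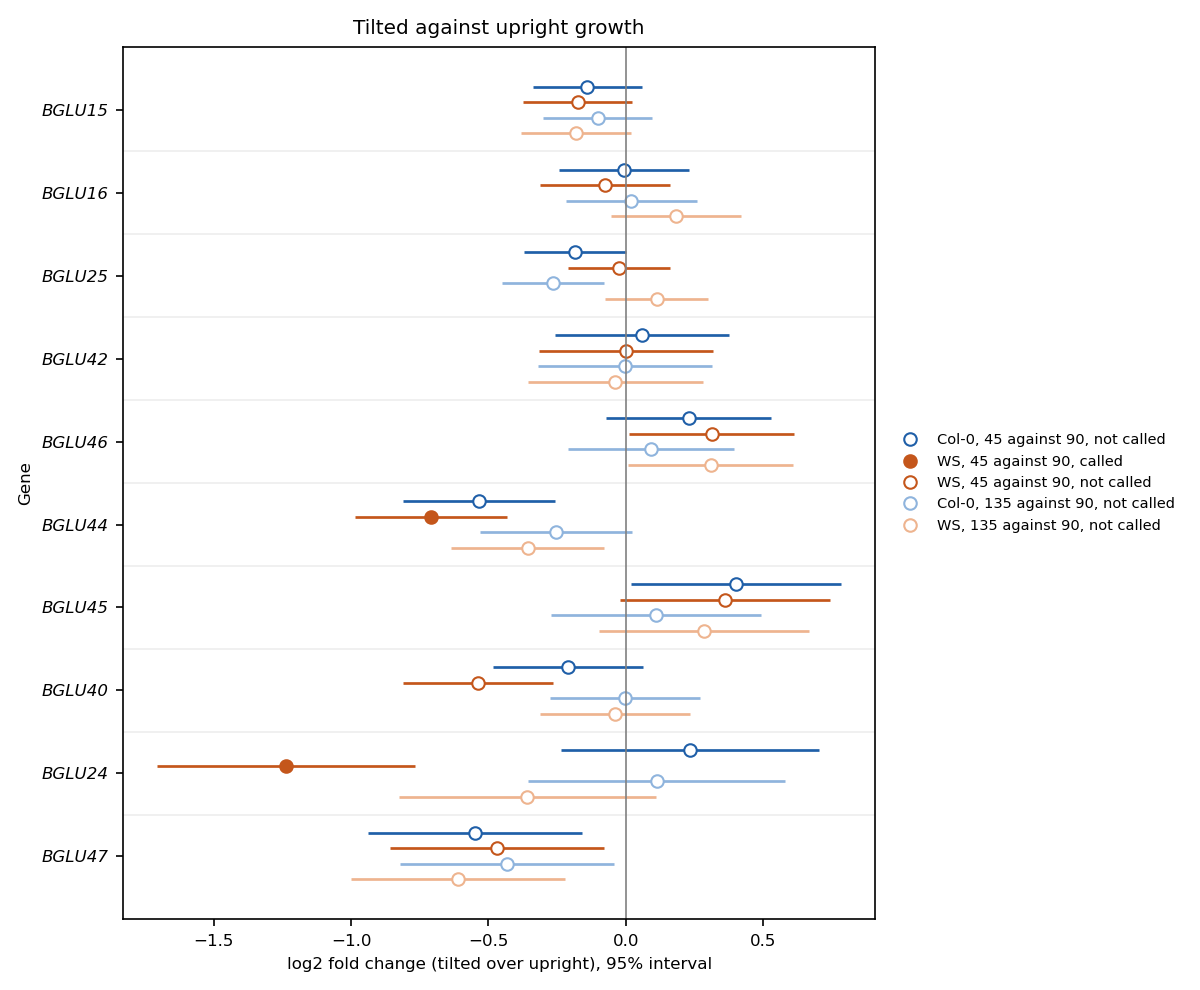
Log2 fold change (horizontal axis) of each BGLU gene (vertical axis) at Agp 45° and Agp 135° against Agp 90°, with 95% intervals, for Col-0 (blue) and WS (orange). The lighter shade is Agp 135°, and filled points are called at an adjusted p under 0.05. Only BGLU24 (-1.24) and BGLU44 (-0.71) in WS at Agp 45° are filled.

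BGLU45 and BGLU46 lie next to each other on chromosome 1 and encode enzymes that release monolignols, the building units of lignin, from glucosides such as coniferin. BGLU45 signals in WS were 237, 189 and 204 at Agp 90°, 279, 264 and 273 at Agp 45°, and 275, 254 and 265 at Agp 135°. BGLU46 signals in WS were 644, 569 and 495 at Agp 90°, 691, 702 and 708 at Agp 45°, and 684, 675 and 758 at Agp 135°. For both genes every tilted WS array lay above every upright one. In WS 16.9% of all probe sets did not overlap between Agp 45° and Agp 90°, and 15.9% between Agp 135° and Agp 90°. The log2 changes at Agp 45° were 0.36 ± 0.18 for BGLU45 and 0.31 ± 0.14 for BGLU46, and neither passed the test (limma's adjusted p = 0.43 and 0.38). At Agp 135° they were 0.28 and 0.31 (adjusted p = 0.61 and 0.46).

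In Col-0 the BGLU45 signals were 154, 226 and 107 at Agp 90°, 213, 229.8 and 202 at Agp 45°, and 129, 168 and 225 at Agp 135°. Those of BGLU46 were 687, 679.9 and 473 at Agp 90°, 734, 709 and 699.8 at Agp 45°, and 569, 588 and 806 at Agp 135°. Spread was wide at Agp 90° and Agp 135° and narrow at Agp 45°, and in Col-0 Agp 90° replicate 3 held the lowest value of both genes over all 18 arrays. Pearson's r between the pair over normalized log2 values was 0.86 over the 9 Col-0 arrays, 0.84 over the 9 WS arrays and 0.76 over all 18 after the group means were removed. This was the highest of the 45 pairs among the 10 genes after that removal (median -0.03, lowest -0.76). Without the 2 arrays of each ecotype farthest from its median in BGLU46, r was 0.47 in Col-0 and 0.52 in WS (7 arrays each), a choice that also narrows the range of BGLU46. Spearman's rho over all 9 arrays was 0.65 in Col-0 and 0.75 in WS. The arrays of a correlation share their angle and scaling.

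The enzymes that make the monolignol glucosides, UGT72E1, UGT72E2 and UGT72E3, all had a probe set and none was called in a tilt comparison. UGT72E2 was higher in Col-0 over the 3 angles by 0.21 on the log2 scale (limma's adjusted p = 0.030), while BGLU45 was lower in Col-0. In that comparison 29% of all probe sets were called.

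Between the ecotypes at Agp 90°, BGLU15 was lower in Col-0, the 1 gene called of the 8 above the limit in both. With BGLU24 (lower) and BGLU47 (higher) it makes 3 of 10. Over all probe sets 13.1% were called at this angle. At Agp 45° 3 genes were called (BGLU15, BGLU25 and BGLU47), with 13% of all probe sets. At Agp 135° 5 genes were called (BGLU15, BGLU24, BGLU25, BGLU45 and BGLU47), with 13.5%. Over the 3 angles together 6 genes were called, 5 lower and 1 higher in Col-0, with 29% of all probe sets. Of the 8 genes above the limit in both ecotypes, 2 were called at Agp 45°, 3 at Agp 135° and 4 over the 3 angles, all lower in Col-0. The arrays' probes follow the Col-0 sequence. For a gene higher in Col-0, as BGLU47 was, a difference in transcript level and weaker hybridization of WS transcripts cannot be told apart. For the genes lower in Col-0 a part of hybridization was not tested.

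The ecotype values of BGLU24, a gene that WS alone brought over the limit, are a description. At Agp 90° its mean signals were 15 ± 5.10 in Col-0 and 139 ± 21.9 in WS (SD, n = 3), a log2 change of -1.84 ± 0.22. At Agp 135° they were 18.2 ± 3.66 and 111 ± 56.7, a change of -1.37 ± 0.22. As the Col-0 signals lie below the pseudocount, the sizes depend on it: with 1 in place of 32 they were -3.07 and -2.29, and with 100 they were -1.05 and -0.77. At Agp 45° the means were 23.4 ± 15.7 in Col-0 and 42.5 ± 0.546 in WS, with a change of -0.37 ± 0.22. In deposited signals all 9 Col-0 arrays lay below all 9 WS arrays, by little for the Col-0 array of 41.2. On the normalized scale of the fit that array, at 6.24, lay above the WS Agp 45° arrays, at 6.22, 6.17 and 6.18, so the ecotypes overlapped there. In order, the group means ran from Col-0 at its 3 angles through WS Agp 45° to WS Agp 135° and WS Agp 90°, and neither the 3 Col-0 groups nor the 2 highest differed beyond their spread.

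BGLU15, which is known to remove glucose from flavonol bisglycosides, was lower in Col-0 at every angle. Its Col-0 signals were 1632, 1459 and 1358 at Agp 45°, 1623, 1541 and 1730.4 at Agp 90°, and 1631, 1471 and 1467 at Agp 135°. In WS they were 2376, 2164 and 2079 at Agp 45°, 2512, 2674 and 2241 at Agp 90°, and 2110.4, 2138 and 2237 at Agp 135°. The 9 arrays of each ecotype did not overlap, as for 7.75% of all probe sets. The log2 changes were -0.56 at Agp 45°, -0.59 at Agp 90° and -0.51 at Agp 135°, each with an SE of 0.09 (limma's adjusted p = 0.00069, 0.00037 and 0.0013). No tilt comparison called BGLU15, and the largest of its 4 changes against Agp 90° was -0.18 ± 0.09.

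BGLU47, which Col-0 alone brought over the limit, had higher signals in Col-0, likewise a description. Its Col-0 signals were 58.1, 40.5 and 70.7 at Agp 45°, 87.7, 106 and 113 at Agp 90°, and 62.1, 58.4 and 76.7 at Agp 135°. In WS they were 27.9, 15.8 and 31.8 at Agp 45°, 43.7, 61.2 and 32.4 at Agp 90°, and 32.9, 22.5 and 7.38 at Agp 135°. The ecotypes did not overlap at any angle, while over all 18 arrays they did. At a single angle 26.5% to 32.1% of all probe sets did not overlap between the ecotypes. The log2 changes were 0.73, 0.82 and 1.0 at Agp 45°, Agp 90° and Agp 135°, each with an SE of 0.18. With a pseudocount of 1 they were 1.39, 1.22 and 2.04, and the calls at Agp 45° and Agp 90° were lost, and with 100 they were 0.37, 0.48 and 0.50. At Agp 45° the call was also lost without WS Agp 45° replicate 2 or Col-0 Agp 45° replicate 3, and at Agp 90° without both arrays of high actin ratio (adjusted p = 0.10).

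BGLU25, another member of the ER body type subgroup, was lower in Col-0 at Agp 135°, with a log2 change of -0.50 ± 0.09 (limma's adjusted p = 0.00095). Its signals there were 675, 703 and 648 in Col-0 and 1018, 966 and 858 in WS. At Agp 45° they were 750.1, 710.2 and 684 in Col-0 and 791, 864 and 897 in WS, without overlap, as for 32% of all probe sets. The change of -0.28 ± 0.09 lay just inside the threshold (adjusted p = 0.045), where 9 of 14 alternative settings took it out. At Agp 90° they were 797, 785 and 873 in Col-0 and 976, 819 and 847 in WS, and the change of -0.12 ± 0.09 did not pass (adjusted p = 0.44). Agp 135° against Agp 90° gave -0.26 ± 0.09 in Col-0 and 0.11 ± 0.09 in WS. The difference between these was 0.38 ± 0.12, with an unadjusted limma p of 0.0081 and an adjusted p of 0.64.

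BGLU45 and BGLU40 had smaller ecotype differences. BGLU45 gave -0.57 ± 0.18 for Col-0 against WS at Agp 135° (limma's adjusted p = 0.048, a call that 9 of 14 alternative settings took out), and -0.44 ± 0.10 over the 3 angles (adjusted p = 0.0043). BGLU40 gave -0.28 ± 0.07 over the 3 angles (adjusted p = 0.0092, and -0.17 with a pseudocount of 100), and at no single angle did it pass (adjusted p = 0.78 at Agp 45°, 0.051 at Agp 90° and 0.077 at Agp 135°). BGLU44 gave -0.19 ± 0.08 over the 3 angles (adjusted p = 0.074). The calls over the 3 angles held for BGLU15, BGLU25, BGLU40 and BGLU45 under every alternative setting in which the gene was tested. Those of BGLU24 and BGLU47 held as well, but the choice of these genes favours this, so it is a description.

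**Figure D3:**
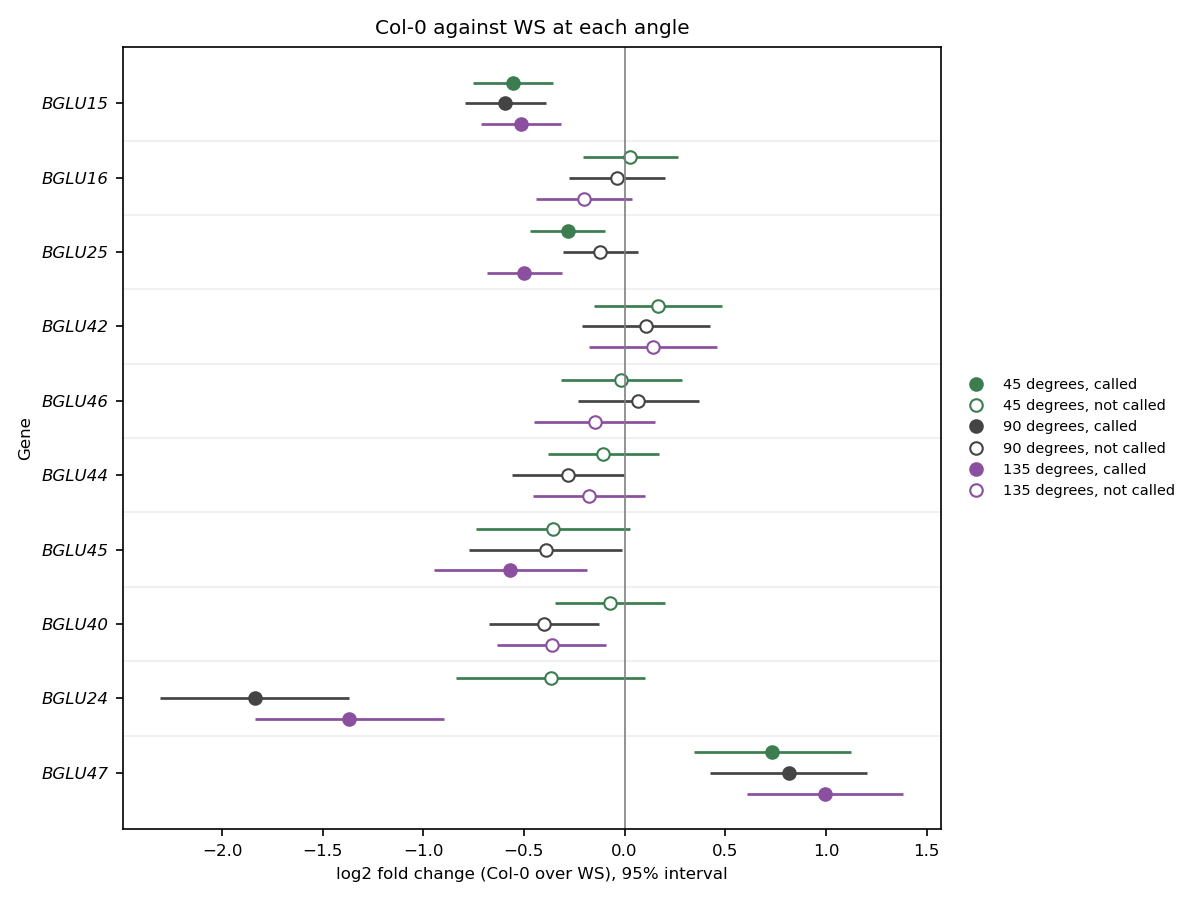
Log2 fold change of Col-0 over WS (horizontal axis) for each BGLU gene (vertical axis) at Agp 45° (green), Agp 90° (dark grey) and Agp 135° (purple), with 95% intervals, with filled points called at an adjusted p under 0.05. BGLU24 reaches -1.84 at Agp 90°, BGLU15 lies between -0.59 and -0.51 at all angles, and BGLU47 between 0.73 and 1.0. BGLU24 and BGLU47 passed the limit on signal only through WS and only through Col-0.

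BGLU16, BGLU42 and BGLU46 were called in none of the 15 comparisons. BGLU42, which hydrolyses coumarin glucosides such as scopolin and takes part in iron-related root exudation and in systemic resistance set off by root microbes, ranged from 662 to 1064 with a median of 759. Its Col-0 arrays were the more spread, at 748, 1064 and 791 at Agp 45° against 703, 798 and 720.2 in WS. Its 4 intervals against Agp 90° lay between -0.36 and 0.38, so changes within each interval were not excluded with 3 arrays. These intervals are not limits of detection, because calls rested on the adjusted p. BGLU16 ranged from 645 to 1010.4 with a median of 854. Its largest change was that of WS Agp 45° against Agp 135°, at -0.26 ± 0.11 (limma's adjusted p = 0.46).

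The other genes of the pathways in which these enzymes are known to work were read from lists by gene name, of which part had a named probe set. For ER bodies and the PYK10 complex 6 of 16 did. Agp 45° against Agp 90° called 1 of the 6 lower in each ecotype, and it was JAL22, a jacalin-related lectin of that complex. Over all probe sets this comparison called 0.022% in Col-0 and 0.985% in WS. JAL22 gave -0.88 ± 0.13 in Col-0 (limma's adjusted p = 0.035) and -0.93 ± 0.13 in WS (adjusted p = 0.0043), with the change of BGLU24 in WS at -1.24 beside it. NAI1, the transcription factor of ER body genes, was called lower in that comparison only over both ecotypes (a log2 change of -0.38, adjusted p = 0.043). Over the 3 angles 2 of the 6 were higher in Col-0 and 2 lower, where 29% of all probe sets were called. Those higher were JAL33, another such lectin (4.22 on the log2 scale), and NAI2, which is needed to form ER bodies (0.85). Those lower were JAL22 (-1.19) and NAI1 (-0.36). PYK10 itself was called in no comparison. Its mean deposited signals were 14886 in Col-0 and 17420 in WS. After quantile normalization its change over the 3 angles was 0.05 ± 0.05, of the opposite sign. The absence of a call for PYK10 thus does not show equal levels. The probe set shared by BGLU21 and BGLU22 was lower in Col-0 at every angle (-0.91, -0.37 and -0.75 at Agp 45°, Agp 90° and Agp 135°).

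For coumarin synthesis and export 4 of 8 genes had a named probe set and no tilt comparison called one. COSY, which closes the coumarin ring, was higher in Col-0 over the 3 angles (0.95 on the log2 scale). F6'H1 and F6'H2, which hydroxylate feruloyl-CoA at the start of the scopoletin branch, were lower (-0.47 and -0.24). Over all probe sets 29% were called in that comparison. BGLU42 gave 0.14 ± 0.09 in the same comparison (limma's adjusted p = 0.26). Of 20 genes for indole glucosinolates 1 had a named probe set, UGT74B1, a glucosyltransferase of their synthesis, which fell at Agp 45° against Agp 90° over both ecotypes (-0.38, adjusted p = 0.025). For abscisic acid 1 of 10 had one and was called in no comparison. None of 12 partners in glucosinolate breakdown had one. Of the 10 other BGLU genes, BGLU41 was called lower in Col-0 at Agp 135° and over the 3 angles, and the rest in no comparison.

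On the chromosome BGLU24 lies between AT5G28500 and AT5G28520. AT5G28500 was higher in Col-0 at Agp 90° (0.52 ± 0.14, limma's adjusted p = 0.019) and over the 3 angles (0.29 ± 0.08, adjusted p = 0.011), and AT5G28520 was lower in Col-0, as BGLU24 was. Group means of AT5G28520 were 10 ± 1.66, 5.88 ± 2.83 and 14.1 ± 19.1 in Col-0 at Agp 45°, Agp 90° and Agp 135°, and 128 ± 27.3, 175 ± 37.7 and 354 ± 159 in WS (SD, n = 3). It was lower in Col-0 at each, with log2 changes of -1.91, -2.43 and -3.03 (SE 0.27, limma's adjusted p = 0.00015, 1.3e-05 and 1.1e-06). In WS the lowest mean of both AT5G28520 and BGLU24 was at Agp 45°. No tilt comparison called AT5G28520. In WS, Agp 45° gave -0.34 ± 0.27 against Agp 90° (adjusted p = 0.67) and -1.16 ± 0.27 against Agp 135° (adjusted p = 0.11). Agp 135° against Agp 90° gave 0.82 ± 0.27 in WS (limma's adjusted p = 0.29). The paper names the gene JAL40, a jacalin-related lectin. With RMA values and unadjusted p-values, it lists the gene as changed in WS at Agp 135° against Agp 90°. Pearson's r between BGLU24 and AT5G28520 was 0.05 over the 9 Col-0 arrays and 0.51 over the 9 WS arrays.

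**Figure D4:**
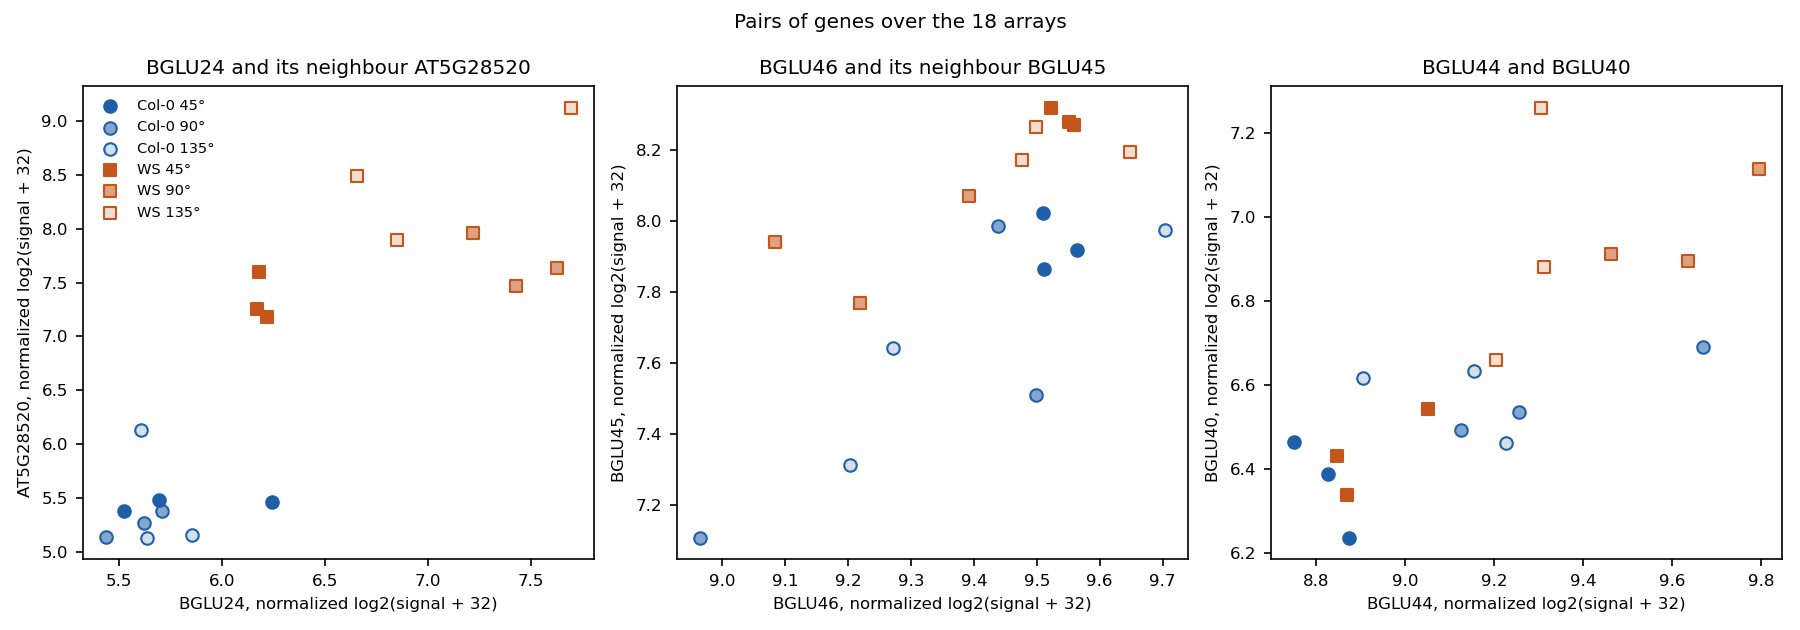
Normalized log2(signal + 32) of 3 pairs of genes on each of the 18 arrays, with Col-0 as blue circles and WS as orange squares and the shade giving the plate angle. BGLU24 and AT5G28520 (left) form separate clouds by ecotype, BGLU46 and BGLU45 (middle) vary together within each ecotype (r = 0.86 and 0.84, or 0.47 and 0.52 without the 2 outermost arrays of each), and BGLU44 and BGLU40 (right) are both lowest at Agp 45°.

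Among the 10 genes BGLU44 and BGLU40 also ran alike, with r = 0.62 over the Col-0 arrays and 0.80 over the WS arrays, and 0.34 once the group means were removed. Over 13264 candidate genes with a named probe set, the genes whose pattern on the 18 arrays was most like that of BGLU44 were AT5G05180 (r = 0.92, and 0.83 with the group means removed), AT5G44400 (0.91 and 0.67) and AT1G65490 (0.91 and 0.66). AT5G44400 fell at Agp 45° against Agp 90° in WS (-2.22 ± 0.23 on the log2 scale, limma's adjusted p = 0.00080). For BGLU15 they were AT1G65500, AT3G14395 and AT5G02140, each with r = 0.95 over all arrays and 0.31, 0.44 and 0.35 with the group means removed. For BGLU24 they were NAMT1, AT1G25530 and AT1G22440, each with r = 0.90, and 0.29, 0.45 and 0.42 with the group means removed. The likeness to BGLU15 and BGLU24 thus lay mostly in the group means, among which the ecotypes differ. That of AT5G05180 to BGLU44 was also seen between arrays of a group. Its choice by the highest r over the same arrays favours this, so it is no separate check.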

How the data were processed

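The authors hybridized root RNA to ATH1 arrays and deposited a table of MAS5 signal intensities on a linear scale, made with Affymetrix Expression Console. On every array the mean without the upper and lower 2% of values came to 500 when checked, so the deposited intensity values already carry a scaling. The authors' own tests used RMA values, which were not computed here. After 32 was added to each signal, the log2 values of 22810 probe sets were quantile normalized, and 64 controls were then left out. limma 3.58.1 in R 4.3.3 fitted 6 group means to the remaining 22746 probe sets (12 residual and 3.45 prior degrees of freedom). Its p-values are two-sided and Benjamini-Hochberg adjusted over all probe sets within a comparison. The design has 12 comparisons, and 3 over both ecotypes were added after values were seen. The fit was tested on simulated data.

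Genes were named where the annotation gives a probe set 1 gene (13513 probe sets, with 503 of several genes and 8730 of none). The genes and lists were chosen with earlier results of these data known. Each of the 10 genes was reported, and for BGLU15, BGLU44 and BGLU24 the 3 genes of highest Pearson correlation were named. Chromosomal neighbours come from RefSeq's TAIR10.1, a rule added after the values were seen. The number of arrays, 3 per group, limits the precision. Alternatives were the pseudocount, the scaling, a filter on dim probe sets, an intensity trend, the groups in the fit, a block for the replicate number, single arrays left out and the choice of genes by median.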

Additional observations from a re-analysis of the deposited data

How the results depend on the processing

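The 20 calls of single genes were recomputed under 13 to 25 alternative settings each, which gave 343 values. Of these 312 kept the call, 31 lost it and 0 changed sign. Calls of BGLU24 and BGLU47 are among the 20, so part of what was kept follows from the choice of the genes. The calls over the 3 angles and over both ecotypes lost none, so all losses fell on comparisons of single groups. For WS Agp 45° against Agp 90°, 4 of 13 were lost for BGLU24 and 4 of 14 for BGLU44. Between the ecotypes, 9 of 14 were lost for BGLU25 at Agp 45° and 9 of 14 for BGLU45 at Agp 135°. The 2 genes called in WS at Agp 45° against Agp 90° became 1 with a pseudocount of 1, without the 40% dimmest probe sets (which leaves out BGLU40, BGLU24 and BGLU47), with a fit of the compared groups alone, and without the 2 arrays of highest actin ratio, an alternative added after the data were seen. Leaving out single arrays gave 0 to 2, with 0 without WS Agp 45° replicate 1. Without the dimmest probe sets the ecotype comparison went from 3 to 1 at Agp 90° and from 5 to 3 at Agp 135°, as those genes were not tested. At Agp 45° it ranged from 1 to 3 over single arrays left out, with 1 without WS Agp 45° replicate 2 or Col-0 Agp 45° replicate 3. For Agp 45° against Agp 90° over both ecotypes the count of 1 became 2 with a pseudocount of 100 (BGLU47 added), with the compared groups alone (BGLU40 added), with the replicate number as a block (BGLU40 added) and, over arrays left out, ranged from 1 to 2 (BGLU45 added without Col-0 Agp 90° replicate 2). For Agp 45° against Agp 135°, in WS and over both ecotypes, the count of 0 ranged from 0 to 1 (BGLU40 added without WS Agp 135° replicate 2). Neither the labels nor the methods say that arrays of equal replicate number belong together, and whether they do is not known. Among 45 pairs of equal number, residuals had a median r of -0.0029 (-0.23 to 0.15), and 5 of 18 arrays lay closest to one of their own number. With that block 3 genes were called in WS at Agp 45° against Agp 90°, and 4, 2 and 4 between the ecotypes at Agp 90°, Agp 45° and Agp 135°. Choosing the genes by median signal kept 9 of the 10, with BGLU41 in place of BGLU24. Without quantile normalization the median of all changes moved by -0.02 at most.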
